A study of Mus musculus with 2 samples.

Results

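The cells described here were selected from 2 single-cell RNA libraries of newborn mouse eye cups by a gate on transcripts, set to find newborn cone photoreceptors. A cell was in the gate if it held at least 1 unique molecular identifier (UMI, a tag that marks 1 captured transcript) from at least 2 of 6 cone transcripts, namely Thrb, Rxrg, Gnb3, Gngt2, Opn1sw and Pde6h. It also had to hold a UMI of Crx, Otx2 or Prdm1, factors of the photoreceptor lineage, and no UMI of the rod factors Nrl and Nr2e3 or of Tfap2b and Pou4f2, which mark amacrine or horizontal cells and ganglion cells. The gate took 1123 of 26158 kept cells, 536 of 14131 in the control library and 587 of 12027 in the mutant library. Because measured values of these 13 genes chose the cells, their levels are given as a description.

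Both libraries came from postnatal day 0 (P0). Each library pooled 3 eye cups, from Myrf fl/fl mice for the control and from mice of the genotype Rx>cre Myrf fl/fl for the mutant. Both copies of Myrf, which encodes a membrane-bound transcription factor, carried recognition sites for the recombinase cre in both groups. The Rx>cre transgene, present in the mutant alone, is active in the early eye field, from which both the neural retina and the pigment epithelium derive, so the deletion was not limited to photoreceptors. The tissue was dissociated without cornea, lens and optic nerve. With 1 library per genotype there was no replicate check, and no test between genotypes was possible. All 95% intervals given here are exact and cover counting error only, not differences between animals.

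Cones are the photoreceptors of daylight and colour vision. In the mouse they leave the cell cycle before birth, ahead of most rods, and the thyroid hormone receptor THRB and the retinoid receptor RXRG are among the nuclear receptors that set which opsin a cone makes. Light is read by an opsin, passed to transducin (the alpha subunit GNAT2 with GNB3 and GNGT2) and then to the cone phosphodiesterase (PDE6C with its inhibitor PDE6H), which controls the channel made of CNGA3 and CNGB3. Rods use a parallel set of proteins under the control of NRL and NR2E3.

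Kept cells had a median of 4231 UMIs in control and 4990 in mutant cells. The matrices held 79017429 and 76272867 UMIs, and 59 barcode sequences occurred in both. The libraries differed in sex-linked transcripts, and the labels give no sex. In the cone gate, 331 control cells (61.8%) and 63 mutant cells (10.7%) held Y-linked UMIs and no Xist. Conversely, 16 control cells (2.99%) and 449 mutant cells (76.5%) had Xist without Y-linked UMIs, so genotype and sex makeup cannot be told apart in what follows. RNA of other cell types was also uneven. At least 5 UMIs of a list of mesenchyme genes were present in 75.2% of gated control cells and 6.0% of gated mutant cells. Myrf itself had 9 UMIs in 2 gated control cells and 5 UMIs in 5 gated mutant cells, too few to check the deletion within the gate. In all other kept cells Myrf was at 11.4 CPM (counts scaled to a total of 1000000 UMIs) in control and 1.71 CPM in mutant cells.

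The gate was mixed, and only a minority of its cells carried more than a pair of its transcripts. In 299 control cells (55.8% of the gate) and 309 mutant cells (52.6%), Gnb3 and Gngt2 were the only cone transcripts present. These are called the Gnb3/Gngt2 subset. A further 132 control cells (24.6% of the gate) and 194 mutant cells (33.0%) held at least 2 of the 4 remaining transcripts, Thrb, Rxrg, Opn1sw and Pde6h, and are called the strict subset. Between them were 105 control cells and 84 mutant cells with just 1 of these 4. The division was made after the data had been seen. Median UMIs per cell were 3687.5 in the strict subset and 3559 in the Gnb3/Gngt2 subset of the control, and 3856 and 4182 in the mutant. All 6 cone transcripts were found together in 28 control cells and 53 mutant cells.

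**Figure D1:**
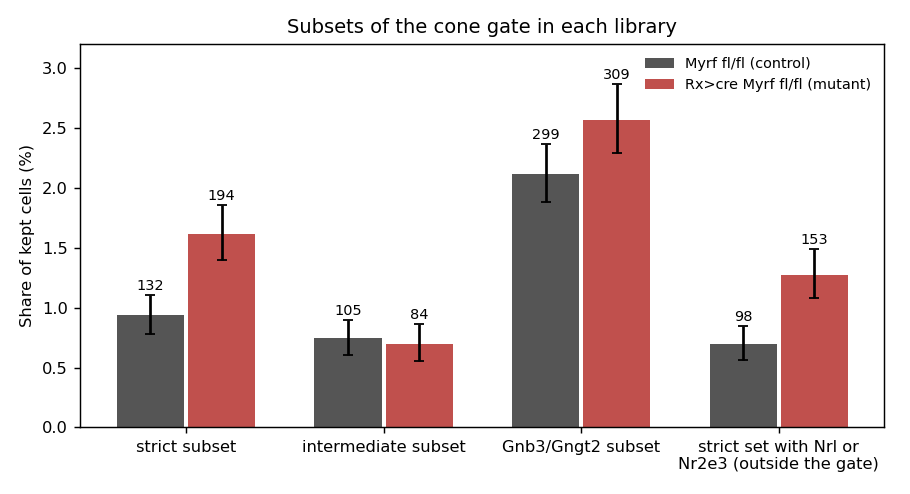
Share of all kept cells (percent, y axis) in each subset of the cone gate and in cells of the strict definition that were kept out by Nrl or Nr2e3, for both libraries. Black lines are exact 95% binomial intervals and numbers are cells. The Gnb3/Gngt2 subset held 2.12% of control and 2.57% of mutant cells, against 0.934% and 1.61% for the strict subset.

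Promoter sequence of 5 genes the results turn on is printed next, as the 300 bases around the transcription start in RefSeq annotation of GRCm38.p6, 5′ to 3′ on the strand of the gene. The genes are the 2 gate members whose level differed most between genotypes in the strict subset, 2 genes outside the gate that were high in the strict subset, and Fabp7, which was high in the Gnb3/Gngt2 subset. Capitals mark exact matches, on either strand, to TAATCC (read by OTX2 and CRX), AGGTCA (a half-site of nuclear receptors such as THRB, RXRG and RORB) and CAGATG (an E-box that NEUROD factors can bind), with both orientations searched. On the other strand TAATCC reads GGATTA. Likewise AGGTCA becomes TGACCT there, and the E-box becomes CATCTG. No 2 matches overlapped.
Opn1sw (chr6:29380464-29380763, minus strand): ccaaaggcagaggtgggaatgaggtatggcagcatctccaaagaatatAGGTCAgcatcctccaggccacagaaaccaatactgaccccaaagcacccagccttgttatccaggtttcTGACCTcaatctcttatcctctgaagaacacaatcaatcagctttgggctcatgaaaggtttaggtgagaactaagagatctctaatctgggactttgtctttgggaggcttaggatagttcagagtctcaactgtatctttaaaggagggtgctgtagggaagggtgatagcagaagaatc
Pde6h (chr6:136954273-136954572, plus strand): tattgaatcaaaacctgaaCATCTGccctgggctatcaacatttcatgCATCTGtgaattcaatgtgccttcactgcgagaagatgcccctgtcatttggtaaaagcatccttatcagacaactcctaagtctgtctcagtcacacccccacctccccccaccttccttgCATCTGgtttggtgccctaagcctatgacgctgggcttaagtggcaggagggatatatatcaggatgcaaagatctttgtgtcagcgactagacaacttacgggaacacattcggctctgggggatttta
Gnat2 (chr3:108092816-108093115, plus strand): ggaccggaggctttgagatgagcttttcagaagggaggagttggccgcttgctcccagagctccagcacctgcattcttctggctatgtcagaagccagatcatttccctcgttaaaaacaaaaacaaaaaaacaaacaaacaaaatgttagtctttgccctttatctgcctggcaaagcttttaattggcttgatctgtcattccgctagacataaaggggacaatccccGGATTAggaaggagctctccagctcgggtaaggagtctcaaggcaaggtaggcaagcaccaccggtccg
Aipl1 (chr11:72037460-72037759, minus strand): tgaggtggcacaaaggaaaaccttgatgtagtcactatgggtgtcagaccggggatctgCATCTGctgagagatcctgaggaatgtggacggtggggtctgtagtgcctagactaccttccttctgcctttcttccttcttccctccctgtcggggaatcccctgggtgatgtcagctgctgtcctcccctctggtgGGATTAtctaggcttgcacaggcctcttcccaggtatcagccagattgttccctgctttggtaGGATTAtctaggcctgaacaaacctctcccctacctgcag
Fabp7 (chr10:57784673-57784972, plus strand): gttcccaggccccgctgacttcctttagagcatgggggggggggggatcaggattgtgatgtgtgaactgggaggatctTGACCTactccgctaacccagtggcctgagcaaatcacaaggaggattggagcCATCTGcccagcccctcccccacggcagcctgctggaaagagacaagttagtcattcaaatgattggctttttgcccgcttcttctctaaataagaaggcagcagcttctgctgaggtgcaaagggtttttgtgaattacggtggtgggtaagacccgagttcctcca
Opn1sw held AGGTCA once on each strand, and Pde6h held CATCTG 3 times. Gnat2 held GGATTA once, Aipl1 held GGATTA 2 times and CATCTG once, and Fabp7 held TGACCT and CATCTG once each. For comparison, TAATCC was found in either orientation in 7.06% of all 32851 promoters of this length, AGGTCA in 16.3% and CAGATG in 17.2%. Of the genes higher in the strict subset that had an entry (308 genes), 11.7% held TAATCC, 15.6% AGGTCA and 16.9% CAGATG, where the shares over all 27025 genes were 8.14%, 18.1% and 19.2%. Of the 123 genes lower in the strict subset, 8.94%, 16.3% and 23.6% held them. These are letter matches and not binding sites, and they were not tested. The annotation had an entry for 4 of the 6 cone transcripts of the gate and for 7 of the 10 cone genes outside it.

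Cone genes that had no part in the gate separated these subsets. Gnat2, the cone transducin alpha subunit (chromosome 3, 108092789 to 108101432, GRCm38), was at 405 CPM in control and 362 CPM in mutant strict cells. In the Gnb3/Gngt2 subset Gnat2 was at 17.7 and 25.5 CPM, a log2 ratio of 4.52 (95% interval from 3.89 to 5.22) in the control and 3.83 (from 3.36 to 4.33) in the mutant. Gnat2 was thus high in the strict subset of both libraries, with intervals far apart from those of the Gnb3/Gngt2 subset. Pde6c, the catalytic subunit of the cone phosphodiesterase, was at 102 and 104 CPM in strict cells and had 2 and 5 UMIs in the Gnb3/Gngt2 subset. Ccdc136, a gene listed with the cone markers here, was at 1041 and 1021 CPM against 60.2 and 95.9 CPM. The channel subunit Cngb3 was at 249 and 245 CPM against 52.2 and 41.1 CPM. Cnga3, its partner, had 47 and 52 UMIs in strict cells and 0 and 2 UMIs in the Gnb3/Gngt2 subset. Guca1a, an activator of guanylate cyclase, was at 131 and 37.8 CPM in strict cells, with 1 and 4 UMIs in the Gnb3/Gngt2 subset. Arr3, cone arrestin, had 12 and 8 UMIs in strict cells and none in the Gnb3/Gngt2 subset. Opn1mw, the middle-wavelength opsin, had no UMI in any gated cell of either library.

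Of the 10 cone markers outside the gate, 9 were thus present in strict cells, the exception being Opn1mw. In the Gnb3/Gngt2 subset the 6 of them that could be compared were lower than in strict cells, but Gnat2 there was above its level in cells with 1 cone transcript, and Cngb3 and Ccdc136 were detected. Because the subsets were cut by cone transcripts, these levels do not test the label of newborn cones, and cells are called by their transcripts here. Of 12 listed rod genes outside the gate, 3 could be compared between the subsets, Pde6g, Gngt1 and Sag. All 3 were higher in strict cells by the rule given below, beside 4.72% of all genes compared. Pde6g and Gngt1 reached the minimum count for a comparison almost wholly through the strict subset, and Sag for the most part. This count therefore describes the subsets and tests nothing. At least 5 UMIs of the list of rod genes were present in 52.3% of control and 36.1% of mutant strict cells. The shares were lower, 13.1% and 13.8%, in the rod-gated cells described below. In cells with at least 2 cone transcripts and Nrl or Nr2e3 they were 31.4% and 27.4%. Gnat1, Pde6a and Cnga1 had at most 1 UMI in all gated cells of either library, but Pde6g, the phosphodiesterase inhibitor of rods, was at 699 and 631 CPM in strict cells against 4.02 and 6.85 CPM. Gngt1, the transducin gamma subunit of rods, was at 436 and 197 CPM in strict cells against 5.62 and 6.85 CPM. Sag, rod arrestin, was at 302 and 64.2 CPM, and had 15 and 10 UMIs in the Gnb3/Gngt2 subset. Strict cells thus held 3 transcripts of the rod pathway with no UMI of Nrl or Nr2e3.

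The number of cone transcripts in a cell tracked the same genes across the limit of the gate. Among cells that met the other conditions, those just outside it, with 1 cone transcript, numbered 800 (control) and 646 (mutant), and those just inside, with 2, numbered 349 and 335. Gnat2 was at 2.29 CPM in control cells with 1 transcript and 16.6 CPM with 2, then at 92.8, 263, 487 and 563 CPM with 3, 4, 5 and 6. In the mutant the corresponding Gnat2 levels were 3.11, 24.6, 86.9, 434, 325 and 358 CPM. Fabp7, a fatty acid binding protein of progenitor and glial cells, was at 1548 CPM in control cells with 1 transcript, 9154 CPM with 2, 8868.5 CPM with 3 and 1350.1 CPM with 4. Inside the gate, Fabp7 in the control was thus lower from 4 transcripts on, while Gnat2 was higher at each number. These values describe the rule and no test was made on them.

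**Figure D2:**
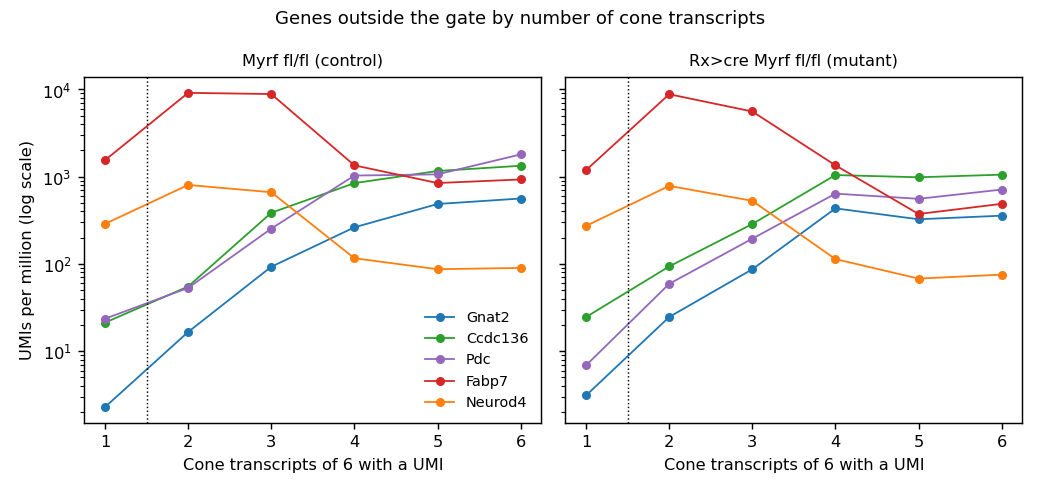
Level in CPM (y axis, logarithmic) of genes outside the gate against the number of the 6 cone transcripts in a cell (x axis), 1 line per gene and 1 panel per library. The dotted line marks the limit of the gate. Gnat2 went from 2.29 to 563 CPM in the control, while Fabp7 was at 9154 CPM in cells with 2 transcripts and 930.4 CPM in cells with all 6.

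Across all genes, 8746 genes outside the gate could be compared between the subsets. A gene was counted as higher or lower if its ratio passed 2-fold with an interval apart from no difference in both libraries. By this rule 413 genes (4.72%) were higher in the strict subset and 187 (2.14%) were lower. Of 10 listed cone genes outside the gate, 6 were measured, of which Cnga3, Guca1a and Pde6c reached the minimum of 20 UMIs almost wholly through the strict subset, and all 6 were higher. Of 18 genes used by both photoreceptor types, 16 were measured, 13 were higher and 1, Rom1, was lower. Some of the 13, among them Rcvrn, Aipl1, Mpp4 and Rp1, also reached the minimum almost wholly through the strict subset. Rom1, a disc rim protein, was at 51.6 and 76.5 CPM in strict cells against 218 and 258 CPM. Since the cells were chosen by transcripts of the same pathway, these counts describe the subsets and are not independent evidence.

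Of the 15 genes with the highest ratios, 6 were on the lists of photoreceptor genes and factors, namely Aipl1, Sall3, Rcvrn, Pde6g, Pde6c and Mpp4. All 15 reached the minimum of 20 UMIs almost wholly through the strict subset, so their ranks describe the subsets and test nothing. Aipl1, a chaperone of the phosphodiesterase, had 257 and 359 UMIs in strict cells and 0 and 4 in the Gnb3/Gngt2 subset, in the control at least 172-fold higher. Rcvrn, the calcium sensor recoverin, had 143 and 211 UMIs against 0 in both libraries, at least 95.8-fold and 106.6-fold higher. Beyond these 15, Tulp1, a photoreceptor transport protein, was at 818 and 616 CPM against 36.1 and 33.6 CPM. Pdc, which encodes phosducin, a binder of transducin beta and gamma subunits, was at 1160.3 and 629.6 CPM against 51.4 and 62.9 CPM. Among the 15, Sall3, a zinc finger factor of cones, had 54 and 108 UMIs against 1 in each library, ratios of 108-fold (log2 interval from 4.22 to 12.1) and 164-fold (from 4.85 to 12.7). The 9 on none of these lists were Ankrd33, Moxd1, Syndig1l, Pgc, Rtbdn, Hsbp1l1, AC110166.1, A930003A15Rik and Rgs9, the last a regulator that ends the transducin signal. Of 10 measured genes of the photoreceptor synapse 6 were higher, beside 4.72% of all genes. The vesicular glutamate transporter Slc17a7 had 36 and 35 UMIs against 2 and 0, and so reached the minimum of 20 UMIs through the strict subset. The fusion protein Stx3 was at 268 and 237 CPM against 33.7 and 26.2 CPM.

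Of 8 neurogenic genes, 6 were lower in the strict subset (beside 2.14% of all genes) and none was higher, with median log2 ratios of -1.48 and -1.62. Atoh7, a factor of competent early precursors, was at 100.1 and 142 CPM in strict cells against 356 and 516 CPM in the Gnb3/Gngt2 subset. The Notch ligand Dll3 was at 24.2 and 28.3 CPM against 195 and 219 CPM. Among factors of photoreceptor fate, Neurod4 was at 108 and 86.8 CPM against 933 and 867 CPM, and Rorb at 694 and 903 CPM against 2217 and 2467 CPM. Rora (147 and 171 CPM against 61.9 and 64.1 CPM) was higher. Fabp7 was at 1009 and 669 CPM against 10759.9 and 9816 CPM, a log2 ratio of -3.42 (from -3.53 to -3.30) and -3.87 (from -3.99 to -3.77). After each cell was thinned to 1000 UMIs, 87.7% of control and 83.0% of mutant cells of the Gnb3/Gngt2 subset held Fabp7, beside 36.9% and 26.9% of strict cells and 8.75% and 7.20% of cells with endothelial markers, taken as background. Of 7 retinal progenitor genes, 1 was higher (beside 4.72% of all genes), the secreted Wnt binder Sfrp2, and none was lower, with medians of -0.19 and 0.11. Of 13 genes of cell division, 0 passed the rule in either direction. The lineage factor Crx was nearly level (394 and 384 CPM in strict cells against 409 and 383 CPM), whereas Otx2 was at 920 and 852 CPM against 2172 and 2073 CPM.

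**Figure D3:**
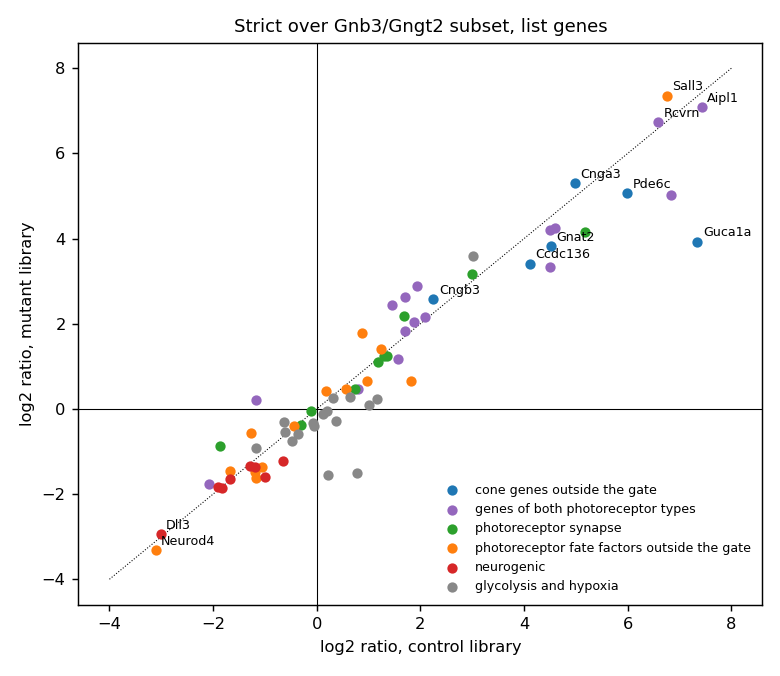
Log2 ratio of the strict over the Gnb3/Gngt2 subset in the control (x axis) and the mutant (y axis), 1 point per gene of 6 lists (colours), with a dotted line of equal ratios. A gene without a UMI in 1 subset is drawn at the bound set by 3 counts. Cone genes outside the gate lie in the upper right, while Neurod4, at -3.11 and -3.32, and Rom1, at -2.08 and -1.75, lie in the lower left.

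Within the strict subset, the 6 cone transcripts of the gate were at the following levels. Gngt2 was at 6553.5 CPM in control and 5835 CPM in mutant cells. Gnb3 was at 1570.2 and 1611 CPM, Thrb at 462 and 516 CPM, and Rxrg at 178 and 214 CPM. Opn1sw, the short-wavelength opsin, was at 1299 and 863 CPM, and Pde6h at 1543 and 807 CPM. In single cells both were unevenly spread. Opn1sw was absent from 31 of 132 control cells (23.5%) and 65 of 194 mutant cells (33.5%), and its highest count was 37 UMIs in control and 50 in mutant cells. The 10% of strict cells with the most Opn1sw UMIs held 42.6% and 47.0% of them, against 20.5% and 19.9% for Gngt2. Over the gate, 66.1% of control cells with Opn1sw also held Pde6h, compared with 8.92% of those without it, and the mutant values were 68.6% and 11.2%. Thinned to 1000 UMIs, 55.4% of control strict cells (from 46.4% to 64.1%) and 41.5% of mutant strict cells (from 34.4% to 48.8%) held Opn1sw. Unthinned shares were 76.5% and 66.5%. Cells with endothelial markers held it in 0.536% and 0.564%, at median depths of 6350 and 6622 UMIs before thinning. Gngt2 was less particular, since 8.25% and 8.11% of these endothelial-marker cells held it when thinned. Of endothelial-marker cells, 1.17% (29 of 2488) and 1.78% (42 of 2365) fell into the cone gate. Of cells with at least 5 UMIs of the macrophage list, 2.86% (7 of 245) and 3.33% (3 of 90) did so. For all kept cells the shares were 3.79% and 4.88%.

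Cells with cone transcripts were more often kept out of the gate by a rod factor than let in. Of cells with at least 2 cone transcripts and a lineage transcript, 1082 of 1682 in the control and 1212 of 1867 in the mutant held Nrl or Nr2e3. Among the 899 and 1028 of these that also lacked Tfap2b and Pou4f2, the median was 4 UMIs of Nrl and Nr2e3 together in both libraries, and 24.8% and 20.8% of cells had only 1. They included 98 control and 153 mutant cells that met the strict definition, with medians of 5 and 7 UMIs of the rod factors. In those cells Opn1sw was at 951 CPM in both libraries and Gnat2 at 188 and 172 CPM. Cone opsin and rod factor transcripts were therefore found in the same droplets, of which 13.3% and 12.4% were marked as possible doublets, compared with 12.1% and 11.9% of the strict subset.

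Gated cells were then compared with rod-gated cells, which held a lineage transcript, Nrl or Nr2e3, fewer than 2 of the 6 cone transcripts and no Tfap2b or Pou4f2 (291 control and 181 mutant cells). Of 10521 genes outside the gate, 127 (1.21%) were higher in cone-gated cells in both libraries and 90 (0.855%) were lower. All 7 measured cone genes outside the gate were higher. This count was partly set in advance, since the rod gate admits fewer than 2 cone transcripts. Cnga3, Guca1a and Slc24a2 reached 20 UMIs almost wholly through cone-gated cells (Cnga3 with 47 and 56 UMIs against 0 in both libraries). Pde6c did so for the most part (79 and 132 UMIs against 10 and 1). Gnat2 was at 128 CPM in cone-gated and 14.6 CPM in rod-gated control cells, and at 142 and 5.42 CPM in the mutant. Rcvrn was at 63.6 and 66.0 CPM in cone-gated cells, where rod-gated cells had 2 and 1 UMIs. Aipl1, Sall3, Syndig1l, Pgc and Moxd1 were again among the 15 highest, as were the calcium-binding protein Cabp5 and the neuronal pentraxin Nptx1. Like Rcvrn, these genes reached 20 UMIs almost wholly through cone-gated cells. Also among the 15 were the complement genes C1qa, C1qb and C1qc of macrophages, and 5 of 6 measured macrophage genes were higher. Of the macrophage UMIs in the gate, 89.9% in the control and 93.5% in the mutant came from 5 cells.

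Lower in cone-gated cells was Sag, at 92.4 and 27.9 CPM against 261 and 251 CPM in rod-gated cells. Of 8 neurogenic genes 2 were lower (beside 0.855% of all genes) and none was higher, Olig2 at 16.6 and 21.5 CPM against 70.5 and 94.3 CPM, Neurog2 at 54.9 and 91.2 CPM against 190.05 and 258 CPM. Atoh7 had log2 ratios of -0.07 (from -0.26 to 0.14) in the control and -0.68 (from -0.84 to -0.52) in the mutant. Btg2, an inhibitor of proliferation, had 0.26 (from 0.15 to 0.37) and -0.21 (from -0.31 to -0.11), with opposite signs. The Notch ligand Dll4, which is on no list, was lower as well, at 19.6 and 27.9 CPM against 59.3 and 73.7 CPM. Median log2 ratios were -0.70 and -0.92 for retinal progenitor genes and -0.68 and -0.82 for cell division genes. By the rule, 0 of 7 and 1 of 13 of these were lower. At least 5 UMIs of the progenitor list were in 23.9% of cone-gated and 39.9% of rod-gated control cells. The pigment epithelium list summed to 751 and 3122 CPM there, and to 688 and 1014 CPM in the mutant. These sums rest on few cells. In the control, 5 cells held 79.6% of the list's UMIs in the cone gate, and 5 cells held 83.9% in the rod gate. Against cells with Nrl or Nr2e3 and any number of cone transcripts, the mutant log2 ratios of Olig2, Neurog2 and Dll4 were 0.0047, 0.36 and 0.47, so their lower level did not hold in the mutant for that wider rod gate. With the strict subset in place of the whole gate, the log2 ratio of Sag in the control was 0.21 (from -0.06 to 0.47). Of 5 measured rod genes outside the gate, 3 were lower and 1 was higher, beside 0.855% and 1.21% of all genes. The higher gene was Pde6g, at 207 and 220 CPM in cone-gated cells against 86.9 and 48.8 CPM in rod-gated cells. Of the lower 3, Pde6b (2 and 5 UMIs against 28 and 29) and Cngb1 (3 and 8 against 37 and 24) reached the minimum of 20 UMIs mostly through rod-gated cells. At up to 2000 UMIs per cell, where 63 control and 26 mutant cells were left in the gate, 0 of 430 measured genes were higher and 9 (2.09%) were lower.

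The comparison of genotypes asked whether loss of Myrf went with a change in the number or transcripts of these cells. The gate held 3.79% of kept cells in the control (from 3.48% to 4.12%) and 4.88% in the mutant (from 4.50% to 5.28%), a mutant share 1.29-fold the control share (from 1.14 to 1.45). The strict subset made up 0.934% and 1.61%, or 1.73-fold (from 1.38 to 2.17). With the strict-set cells that also held Nrl or Nr2e3 added, the shares were 1.63% and 2.89%, or 1.77-fold (from 1.50 to 2.10). The Gnb3/Gngt2 subset was 1.21-fold (from 1.03 to 1.43) and the intermediate cells 0.940-fold (from 0.697 to 1.26). Rod-gated cells, which exclude cells with 2 or more cone transcripts, were at 2.06% and 1.50%, or 0.731-fold (from 0.604 to 0.883). Cells with cone transcripts and a rod factor were at 6.36% and 8.55%, or 1.34-fold (from 1.23 to 1.47). Cone-gated cells made up 64.8% of cone-gated plus rod-gated cells in the control and 76.4% in the mutant. With cells that held both kinds of transcript in the denominator, these shares were 31.1% and 32.7%, 1.05-fold (from 0.935 to 1.19). In cells whose sex-linked UMIs were all Y-linked, the gate held 4.64% of control and 3.88% of mutant cells, opposite in order to the whole libraries. The strict subset was at 1.09% and 0.862% of these cells (78 and 14 cells), likewise opposite in order. The log2 ratio of the gate's shares in Y-linked cells was -0.26 (from -0.67 to 0.13), an interval across 0, and in cells with Xist alone it was 1.79 (from 1.07 to 2.61; 1.55% and 5.35%). The order of the gate's shares was also reversed (log2 -0.33, from -1.10 to 0.56) without cells holding 2 UMIs of another type, which left 14 control and 269 mutant cells in the gate. Shares of all cells also move with the number of other cells caught, and that part was not tested.

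For transcripts of the whole gate, 11668 genes were measured. The mutant was higher by over 2-fold, with an interval apart from no difference, in 218 genes (1.87%) and lower in 141 (1.21%). The 10 genes with the lowest ratios that were present in at least 5% of gated cells of 1 library were all crystallins of the lens. Crybb3 was at 116 CPM in the control, with 1 UMI in the mutant, and Cryge had 312 UMIs in the control and none in the mutant, at least 148-fold lower. In all other kept cells Crybb3 was at 147 and 1.07 CPM, so the difference was present outside the gate too. The other 9 crystallins had log2 ratios of -5.52 or lower in all other kept cells. After thinning, 12.4% of gated control cells and 8.50% of endothelial-marker control cells held Cryge.

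Of the 10 highest genes, Krt15 had 45 UMIs in control and 574 in mutant cells (19.6 and 176 CPM, log2 3.17), and Krt12 had 76 and 613 (33.1 and 188 CPM, log2 2.51). Both are keratins of surface epithelium. Krt15 was present in 7.65% and 7.50% of gated cells, so its higher sum in the mutant was not matched by more cells. Gsta4, Cldn5 and Plk2 were higher in the whole gate (log2 1.80, 1.42 and 1.39) but not in the strict subset alone (-0.0083, -0.23 and -0.30). The endothelial claudin Cldn5 was in 6.16% and 5.96% of gated cells. The other 5 (Gabbr2, Ppp3cc, Spsb4, Chaf1a and Ddx31) had log2 ratios from 1.32 to 1.44, on 39 to 56 UMIs in the mutant. The markers of other types in the gate moved as well. All 7 endothelial genes had intervals above 0, beside 8.92% of all genes, and 4 of 4 red blood, 6 of 6 lens and 5 of 6 mesenchyme genes had intervals below 0, beside 4.36% of all genes. Few cells held much of the red blood and endothelial sums. Of the red blood UMIs in the control gate, 1 cell held 12809 of 16799, and of the endothelial UMIs in the mutant gate, 1 cell held 628 of 1683 and 5 cells held 75.2%. The summed mesenchyme list was at 4981 CPM in control gated cells, the lens list at 329 CPM in control and 2.46 CPM in mutant cells. Their part in the ratios of other genes was not tested.

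**Figure D4:**
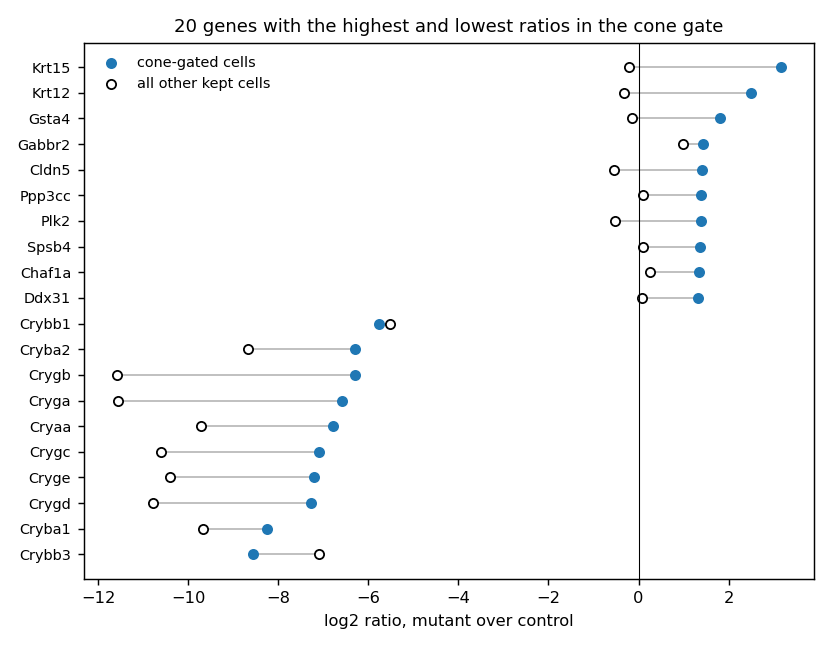
Log2 ratio of the mutant over the control (x axis) for the 10 highest and 10 lowest named genes (y axis), in cone-gated cells (filled) and in all other kept cells (open). Genes without a UMI in the mutant are drawn at the bound set by 3 counts. The crystallins lie far to the left in both, while Krt15 is at 3.17 in gated cells and at -0.22 in all other kept cells.

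In the strict subset, some genes of light detection were lower in the mutant, and others had intervals that included no difference. Of 8766 genes measured there, 277 (3.16%) were higher by over 2-fold and 168 (1.92%) lower. Counting intervals alone, 6.99% of genes lay above 0 and 4.27% below. Markers of other types differed in the strict subset as well. All 6 measured macrophage genes and 5 of 7 endothelial genes had intervals above 0. Below 0 were 5 of 6 mesenchyme, 4 of 4 red blood, 3 of 3 lens and 4 of 7 pigment epithelium genes. Their part in the ratios given next was not tested. Sag was at 302 CPM in control and 64.2 CPM in mutant cells (log2 -2.23, from -2.66 to -1.83). Guca1a was at 131 and 37.8 CPM (-1.79, from -2.38 to -1.23). Gngt1 was at 436 and 197 CPM (-1.14, from -1.41 to -0.88). These 3 were the listed photoreceptor genes past 2-fold, and in the strict subset all were lower in the mutant. Pde6h followed at 1543 and 807 CPM (-0.93, from -1.07 to -0.80), Pdc at 1160.3 and 629.6 CPM (-0.88, from -1.04 to -0.73) and Opn1sw at 1299 and 863 CPM (-0.59, from -0.73 to -0.45). Impg2, a matrix proteoglycan around photoreceptors, was at 276 and 167 CPM (-0.72, from -1.04 to -0.41), and the transporter Slc17a7 at 58.1 and 33.0 CPM (-0.81, from -1.53 to -0.10). Crym, a binder of thyroid hormone, was at 108 and 56.6 CPM (-0.93, from -1.46 to -0.41). Cnga3, the channel partner of Cngb3, was at 75.8 and 49.1 CPM. Of the 6 cone transcripts of the gate, 3 had intervals below 0 in the strict subset, Opn1sw, Pde6h and Gngt2. The levels of Gngt2 are given above, and its difference was smaller than those of Opn1sw and Pde6h.

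Other genes of the same pathway were in the second set. Gnat2 had a log2 ratio of -0.16 (from -0.39 to 0.07), Pde6c of 0.03 (from -0.43 to 0.50) and Cngb3 of -0.02 (from -0.31 to 0.28). Ccdc136 was at -0.03 (from -0.17 to 0.12), Gnb3 at 0.04 (from -0.08 to 0.15) and Pde6g at -0.15. These intervals lay within 2-fold in either direction, which does not show that the genotypes were alike. The receptors Thrb (0.16, from -0.05 to 0.37) and Rxrg (0.27, from -0.06 to 0.61) also had intervals across 0. By list, 2 of 9 cone genes outside the gate, 2 of 3 rod genes and 6 of 16 genes of both types had intervals below 0, beside 4.27% of all genes. Isl2, a LIM homeodomain factor, was the 1 member of these lists with an interval above 0 (0.70, from 0.03 to 1.40). In cells with cone transcripts and Nrl or Nr2e3, outside the gate, Pde6h was also lower in the mutant (-0.78), as were Gngt1 (-0.66) and Sag (-0.44), whereas Opn1sw (0.37) and Gnat2 (0.60) were higher and Pdc was at 0.10.

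Sex-linked transcripts gave a partial split of this result. Y-linked UMIs without Xist were present in 78 strict cells of the control and 14 of the mutant. In them Opn1sw was at 1382 CPM in the control (from 1264 to 1507) and 1358 CPM in the mutant (from 1117 to 1635). Pde6h was at 1796 and 587 CPM, Guca1a at 172 and 24.5 CPM (2 UMIs in the mutant), Gngt1 at 444 and 147 CPM and Pdc at 1194 and 342 CPM, all lower in the mutant as in the whole subset. Sag was at 294 CPM in the control and had 1 UMI in the mutant. The 155 mutant strict cells with Xist alone had Opn1sw at 864 CPM and Pde6h at 889.5 CPM. Both values were lower in the 5 such control cells, Opn1sw at 119 CPM (from 47.9 to 245) and Pde6h at 51.0 CPM (from 10.5 to 149). That order is opposite to the whole subset, but 5 cells are too few to compare. The difference in Opn1sw between the whole strict subsets was thus not seen within the cells with Y-linked UMIs, where the mutant value rests on 14 cells.

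Most measured genes of a list for glycolysis and the response to low oxygen had intervals above 0 in the mutant gate. Of 18 listed, 17 were measured, 12 had intervals above 0 (beside 8.92% of all genes) and none below, and the median log2 ratio was 0.33, beside 0.07 over all genes. Pgk1, a glycolytic kinase encoded on the X chromosome, was at 190.5 CPM in control and 349 CPM in mutant cells (0.88, from 0.71 to 1.04). Gapdh was at 1306 and 1689 CPM (0.37, from 0.31 to 0.44), the glucose transporter Slc2a1 at 142 and 215 CPM (0.60, from 0.41 to 0.79) and Bnip3 at 42.3 and 66.9 CPM (0.66, from 0.31 to 1.02). No member reached 2-fold, and Vegfa (68.9 and 70.3 CPM) and Ankrd37 (35.3 and 34.4 CPM) were nearly level. The median of the list was above 0 outside the gate too, at 0.48 in all other kept cells. Inside the gate the median was 0.48 in the Gnb3/Gngt2 subset (13 of 16 intervals above 0 and none below, beside 6.66% and 4.56% of all genes there) and 0.19 in the strict subset (5 above and 1 below of 16, beside 6.99% and 4.27%), and the difference between subsets was not tested. The median turned in direction where few cells were left, to -0.46 at up to 2000 UMIs per cell (63 control and 26 mutant cells) and to -0.13 without cells holding 2 UMIs of another type (14 and 269 cells). In cells with Xist alone it was 0.062, on 16 control cells, and in cells with Y-linked UMIs alone 0.35. In the latter Pgk1 was at 166 CPM in control and 426 CPM in mutant cells, and Gapdh at 1304 and 2019 CPM. With Xist alone, Pgk1 was at 460 CPM in control and 352 CPM in mutant cells, opposite in order. Gapdh was nearly level there, at 1620 and 1653 CPM.

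Of 8 neurogenic genes, 3 had intervals above 0 in the mutant gate and none below, beside 8.92% of all genes above. The list's median log2 ratio was 0.24 in the gate and 0.37 in all other kept cells. Neurog2 was at 54.9 CPM in control and 91.2 CPM in mutant cells (0.73, from 0.43 to 1.04) and Atoh7 at 259.8 and 323 CPM (0.31, from 0.17 to 0.46). Of 13 cell division genes, 6 had intervals above 0, and their median was 0.31 in the gate and 0.36 in all other kept cells, with Mcm6, a replication helicase subunit, at 31.8 and 54.0 CPM (0.76, from 0.36 to 1.18). Members of the list of photoreceptor fate factors went both ways, with 6 of 15 above and 3 below 0, beside 8.92% and 4.36% of all genes. Mef2c and Sall3 were among those above (0.79 and 0.52), and Casz1, Neurod4 and Neurod1 were those below (-0.39, -0.21 and -0.15). Thyroid hormone and opsin patterning genes had no interval above 0 and 2 of 11 below (beside 4.36% of all genes), Thra (-0.28) and Crym (-0.33). Of genes with dorsal or ventral restriction in the retina, Tbx2 was at 88.0 and 117 CPM (0.41) and Aldh1a1 at 16.6 and 6.76 CPM (-1.29), both listed as dorsal, and none of the 4 measured ventral genes had an interval apart from 0.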

How the data were processed

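Single-cell libraries (10x Genomics 3′) of P0 eye cups, 1 per genotype, were examined. The authors deposited unnormalized UMI counts for every gene in each barcode, made against mm10. The submitters' processing notes name Cell Ranger 7.1.0 and Seurat 4.1.1, while the matrix headers give software version 3.1.0. The annotation used for counting is not given in the sources used here.

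Barcodes with at least 200 genes and at most 15% mitochondrial UMIs were kept. The study's upper limit of 2000 UMIs was run as an alternative, because 80.9% of kept control and 93.3% of kept mutant barcodes exceeded it. Scrublet (scanpy 1.11.5) marked the expected rate of doublets, 11.3% and 9.62% of barcodes, including 13.8% and 14.5% of gated cells. These were kept, since its own threshold marked 0% of control barcodes, and were left out as an alternative. Free RNA was not corrected for.

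UMIs were summed per library and set of cells and divided by the set's total (CPM). Genes with at least 20 UMIs per comparison were measured. Ratios had conditional Poisson intervals, levels Poisson intervals and shares Clopper-Pearson intervals, all exact at 95%. A count of 0 was set to 3 counts over the set, and the ratio is then a bound. Shares of cells with a UMI were taken after thinning to 1000 UMIs. Endothelial-marker cells held at least 3 UMIs of the endothelial list. Interval code was tested on simulated data. Python 3.11.15, numpy 2.4.6, scipy 1.17.1 and pandas 2.3.3 were used. Positions came from GENCODE M21 (GRCm38), matched by identifier, and promoters from RefSeq.

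Genes named are the 13 of the gate, Myrf, members of fixed lists, the 10 highest and 10 lowest between genotypes (at least 50 UMIs, and a UMI in at least 5% of gated cells of 1 library, leaving out mitochondrial, sex-linked check and hemoglobin genes), and the 15 highest and lowest between cone-gated and rod-gated cells. The same rule was used for the subsets, a comparison added after the data were seen. The gate, the members and the lists were chosen with earlier results of these data known. Some genes that the rule names are not reported here.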

Additional observations from a re-analysis of the deposited data

Results flagged for a closer look

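For 12 genes, 11 of them on the lists and Pf4 on none, the strict and the Gnb3/Gngt2 subsets had log2 ratios of mutant over control that lay on opposite sides of 0, each with a counting interval apart from 0. The differences between the subsets were not tested. Aldoa, a glycolytic enzyme, was at -0.18 in the strict subset and 0.73 in the Gnb3/Gngt2 subset, and the immediate early gene Dusp1 at 1.68 and -0.48. Genes of pigment cells went the other way from Dusp1, Pmel at -1.44 and 2.45, Mlana at -1.17 and 3.98 and Trpm1, which bipolar cells also use, at -2.25 and 2.87. Genes of macrophages were higher in the mutant strict subset and lower in the mutant Gnb3/Gngt2 subset, Csf1r at 2.40 and -3.62, C1qa at 2.66 and -3.33, C1qb at 3.47 and -3.90 and C1qc at 3.84 and -4.31. Tyrobp was at 2.93 and -4.40, Fcer1g at 3.87 and -3.83 and Pf4 at 7.57 and -4.19. The macrophage and pigment sums rest on few cells. In the mutant strict subset 1 cell held 501 of the 531 UMIs of the macrophage list, and in the control Gnb3/Gngt2 subset 1 cell held 428 of 513. For the pigment epithelium list, 1 control strict cell held 594 of 817 UMIs and 1 mutant cell of the Gnb3/Gngt2 subset held 434 of 886. Trpm1 was likewise in few cells, 4.55% of control and 3.61% of mutant strict cells, and 2.34% and 1.94% of the Gnb3/Gngt2 subset. For the bipolar list, 1 mutant cell of the Gnb3/Gngt2 subset held 74 of 113 UMIs.

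Transcripts of the strict definition were also present in cells outside the gate. The gate excluded 98 control and 153 mutant cells that held at least 2 of Thrb, Rxrg, Opn1sw and Pde6h together with Nrl or Nr2e3. Their share of kept cells was 0.694% and 1.27%, a mutant share 1.83-fold the control share (from 1.41 to 2.39), beside 1.73-fold for the strict subset.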

How the results depend on the processing

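No paired analysis was possible because each genotype had 1 library, and for the same reason no replicate could be left out. Alternatives named as subsets, as 5 UMIs of another type, as a wider rod gate, and all those of the strict against the Gnb3/Gngt2 subset were chosen after seeing the data. For the summary values of the comparisons, 106 stayed within their counting interval or within 1.5 times a count, 47 moved further, and 6 whose interval was apart from 0 changed sign. Counts of genes were judged by their number, so a count could stay while its share of measured genes moved. The cause of each shift was not tested. Some alternatives leave few cells. Leaving out cells with 2 UMIs of another type left 14 gated control and 269 gated mutant cells, the limit of 2000 UMIs left 63 and 26, cells with Xist numbered 16 and 449, and cells with Y-linked UMIs 331 and 63.

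The log2 ratio of the gate's share (0.36) was 0.61 at a mitochondrial limit of 5%, 0.66 with 3 transcripts asked for, 0.63 without Gngt2, 1.79 in Xist cells, 0.79 in the strict subset, -0.33 without cells with 2 UMIs of another type and -0.26 in Y-linked cells. That of cone-gated among cone-gated plus rod-gated cells (0.24) was 0.46 with 3 transcripts, 0.43 without Gngt2, 0.49 in Xist cells and 0.73 for the strict subset. The following counts of genes stand beside their share of the genes measured under each setting, since that number differs. Genes higher in the mutant gate (218, 1.87%) numbered 75 (7.43% of 1010) at up to 2000 UMIs, 61 (0.829%) and 144 (1.31%) without cells with 2 or 5 UMIs of another type, 105 (1.18%) after thinning to 2000 UMIs, 416 (4.22%) in Xist cells and 334 (2.86%) by per-cell means. Genes lower (141, 1.21%) numbered 216 (1.93%) at 5% mitochondrial UMIs, 615 (6.24%) in Xist and 236 (2.67%) in Y-linked cells, 433 (3.71%) by per-cell means and 218 (1.27%) with at least 1 UMI. At up to 2000 UMIs they numbered 101, within 1.5 times the count, but this was 10.0% of the 1010 genes measured. The glycolysis median (0.33) was -0.46 at up to 2000 UMIs, -0.13 without cells with 2 UMIs of another type, 0.062 in Xist cells and 0.48 in the Gnb3/Gngt2 subset. The median of cone genes outside the gate (0.07) was 1.09 in Xist cells and 0.53 in the Gnb3/Gngt2 subset. It was below 0 in others, at -0.23 with 3 transcripts, -0.15 without Gngt2, -0.50 without cells with 2 UMIs of another type, -0.42 in Y-linked cells and -0.16 in the strict subset, so its sign was not stable. Opn1sw (-0.35) was 0.39 at up to 2000 UMIs, -0.69 with 3 transcripts, -0.60 without Gngt2, -1.97 without cells with 2 UMIs of another type, 2.02 in Xist cells, -0.061 in Y-linked cells and -0.59 in the strict subset. Genes higher in cone-gated than rod-gated cells (127, 1.21%) numbered 0 of 430 at up to 2000 UMIs, 206 (1.88%) with 3 transcripts, 199 (1.81%) without Gngt2, 63 (0.839%) after thinning, 351 (4.01%) for the strict and 35 (0.376%) for the Gnb3/Gngt2 subset, and 77 (0.646%) with the wider rod gate. Genes lower (90, 0.855%) numbered 188 (1.93%) without doublets, 9 (2.09%) at up to 2000 UMIs, 52 (0.693%) after thinning, 184 (1.75%) by per-cell means, 145 (1.49%) without cells with 5 UMIs of another type, 197 (2.25%) for the strict and 189 (2.03%) for the Gnb3/Gngt2 subset. Between the strict and the Gnb3/Gngt2 subset, genes higher (413, 4.72%) numbered 227 (4.19%) after thinning and 51 (1.92%) in Y-linked cells, where 2659 genes were measured. Genes lower (187, 2.14%) numbered 79 (2.97%) in Y-linked cells and 331 (3.78%) by per-cell means.

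Single genes changed sign as follows (log2, mutant over control). In Xist cells, Chaf1a was at -0.97, Cldn5 at -0.43, Gabbr2 at -0.53, Gsta4 at -0.995, Plk2 at -2.22, Guca1a at 0.98 and Sag at 0.98. Without cells with 2 UMIs of another type, Gabbr2 was at -1.27, Gsta4 at -1.54, Ppp3cc at -1.05 and Spsb4 at -1.34. Cldn5 was at -0.40 without cells with 5 such UMIs and -0.23 in the strict subset, Gsta4 at -0.0083 in the strict subset, and Plk2 at -0.053 with 3 transcripts, -0.025 without Gngt2 and -0.30 in the strict subset. For cone-gated over rod-gated cells of the control, C1qc was at -0.42 with 3 transcripts, C1qa at -0.19 and C1qb at -0.45 after thinning, Sag at 0.21 for the strict subset, Pdgfrl at 0.43 without doublets, and Slc26a7 at 0.0035 at 5% mitochondrial UMIs and 0.028 without cells with 5 UMIs of another type. For the mutant, the wider rod gate gave Olig2 0.0047, Neurog2 0.36, Gpnmb 0.67, Dll4 0.47, Ptpru 0.061 and Ogn 0.052. With 3 transcripts, Slc26a7 was at 0.55, Ogn at 0.56 and Slc7a8 at 0.21, and without Gngt2 they were at 0.48, 0.51 and 0.31, with Gpnmb at 0.63. Krt12 in the strict over the Gnb3/Gngt2 subset of the mutant was at 4.04 in Y-linked cells.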

Other observations

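Genes of other retinal neurons were present in few gated cells. Lists of amacrine, ganglion, horizontal and bipolar cells reached at least 5 UMIs in 4.10%, 0.933%, 1.31% and 1.12% of gated control cells and in 8.01%, 1.87%, 2.21% and 1.70% of gated mutant cells, where the gate's own exclusion of Tfap2b and Pou4f2 bears on the first 3. The neurogenic list did so in 69.0% of gated control cells and in 85.6% of the Gnb3/Gngt2 subset against 39.4% of the strict subset. Between genotypes, genes of the response to dissociation (14 measured) had 1 interval above and 4 below 0 in the gate (beside 8.92% and 4.36% of all genes), with a median log2 ratio of -0.14. In the Gnb3/Gngt2 subset 8 of them were below and 2 above 0 (median -0.38), beside 4.56% and 6.66% of all genes. Targets of p53 and apoptosis genes (11 measured) had 1 interval above and 2 below 0 in the gate, with a median of 0.13.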
